A study of Ovis aries with 6 samples.

Results

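The vacuolar proton pump is a rotary enzyme that uses ATP to push protons across membranes. Its soluble V1 sector burns ATP, its membrane-bound V0 sector carries the protons, and accessory proteins help it assemble and travel. The pump acidifies lysosomes, endosomes and the Golgi apparatus, and its work underlies protein breakdown in lysosomes, iron release from endocytosed transferrin and the sensing of amino acids by mTORC1. In the ovary, granulosa cells line the inside of the follicle, and atresia is the degeneration that most follicles undergo.

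The members described here are 10 genes of the pump. They comprise 6 subunits of V1 (ATP6V1A, ATP6V1B2, ATP6V1C1, ATP6V1D, ATP6V1E1 and ATP6V1H), 2 of V0 (ATP6V0A1 and ATP6V0D1) and the 2 accessory subunits ATP6AP1 and ATP6AP2. Each was matched by its gene name in the deposited table, and of several loci with 1 name the protein-coding one with most reads on average was kept. The name found 8 of the 10. ATP6V1D and ATP6AP2 stood there under an Ensembl identifier and were traced by their NCBI gene number, which the description column of the table gives. Together they are 10 of 34119 loci in the table, and all 10 were among the 14702 tested loci, those with a gene name and a mean of at least 1 FPKM (reads scaled by the length of the locus and the depth of the library). The genes were picked with the difference between atretic and healthy follicles in view, so their values in that comparison are given as a description, without p-values, and a count of calls among them stands only beside the share of all loci called.

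RNA of sheep (Ovis aries) granulosa cells was sequenced after removal of ribosomal RNA, in 3 libraries from atretic and 3 from healthy follicles. The labels give no treatment, breed or age for either group, call the libraries of a group independent biological replicates, and name no animals. The p-values below therefore measure the spread between these libraries. The labels do not say how follicles were judged atretic, how many were pooled or how the cells were collected, which limits what each group stands for.

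Total counts lay between 87455037 and 91597388 per library. Healthy replicate 3 stood apart from all other libraries. Its TMM scaling factor was 0.835, against 0.987 to 1.09 in the other libraries. edgeR's estimate of the biological coefficient of variation fell from 0.290 to 0.156 when this library was left out. Differences between the groups are given below with and without that library. Of 10 granulosa markers 9 were found, each with at least 8599 counts in every library, and CYP19A1 was not analysed here. Of the 9, 4 (INHA, AMH, AMHR2 and GATA4) lay on loci shared with other genes, whose reads are counted with theirs. These are bulk samples, in which fewer cells of a type and less RNA per cell cannot be told apart.

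Levels of the pump genes were first compared per length, in FPKM, as a mean over the 6 libraries. ATP6AP2 was highest with 41.4 ± 11.1 FPKM (SD, n = 6), followed by ATP6AP1 with 33.0 ± 6.81. The accessory subunits were thus measured above every catalytic or membrane subunit, including the highest of the subunits outside the list, ATP6V0E1, at 22.2 ± 5.28. A middle set followed, with ATP6V1A at 14.5 ± 4.17, ATP6V0D1 at 12.6 ± 3.31, ATP6V1B2 at 10.7 ± 2.78 and ATP6V0A1 at 9.33 ± 2.20 FPKM. ATP6V1C1 had 7.05 ± 1.21, ATP6V1D 5.52 ± 1.10 and ATP6V1E1 5.37 ± 1.06 FPKM. ATP6V1H was lowest of the 10 at 2.02 ± 0.53 FPKM. Some neighbours in this order, such as ATP6V1D and ATP6V1E1, differed by less than their spread. Within the list, ATP6AP1 and ATP6V1A differed by more than theirs, and ATP6V1H stood below all others by more than its spread. The order depends on the length used by the authors. Counts divided by FPKM gave a length of 1154 bases for ATP6V1D but 11642 for ATP6V0A1 and 8231 for ATP6V1H, so the level of a subunit with a long assembled locus is divided by more bases.

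Differences between the groups are given from here on in CPM, counts scaled to a common library size with TMM factors, which involve no length. Of the 10 genes, 9 had a log2 difference below 0 (atretic minus healthy). Over all tested loci the share below 0 was 54%, and 5765 of the 9542 protein-coding ones were below 0. The median over the 10 genes was -0.34, with a range from -0.60 to 0.30, beside a median of -0.03 over all tested loci and -0.07 over the 9542 protein-coding ones. Without healthy replicate 3 the 10 genes had a median of -0.41, beside -0.01 and -0.09 over those loci. Again 9 of the 10 were below 0, against 51.3% of all tested loci. In 5 of the 10 every atretic library was below every healthy one (ATP6V1A, ATP6V1C1, ATP6V1E1, ATP6V0D1 and ATP6AP1), an arrangement found in 10.8% of all tested loci. In 1, ATP6V1D, every atretic library was above, as in 11.1% of all loci. The libraries of the groups overlapped in the other 4. On the FPKM scale, whose library scaling is the authors', 4 stayed free of overlap, since ATP6V1E1 and ATP6V1D then overlapped. With healthy replicate 3 left out, 9 genes had every atretic library below both healthy ones, against 25.1% of loci, and ATP6V1D had every atretic library above, against 24.8%. edgeR's test over all 6 libraries called 3 of 14702 loci lower in atretic follicles (0.0204%) and 7 higher (0.0476%) at an adjusted p under 0.05, and none of the 10 was among them. Without healthy replicate 3 it called 1163 lower (7.91%) and 1598 higher (10.9%), with 8 of the 10 among the lower and 0 among the higher. DESeq2, with all 6 libraries, called 257 loci lower (1.75%) and 372 higher (2.53%), with 2 of the 10 lower and 0 higher. The 10 genes are protein-coding, and protein-coding loci leaned lower than all loci. Of those 9542, every atretic library was below every healthy one in 1358 and above in 787. Without healthy replicate 3 these counts were 3149 and 1501, with 6129 below 0, 1039 called lower by edgeR and 561 higher. Since the genes were picked on this contrast, nothing is read from these shares and counts.

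**Figure D1:**
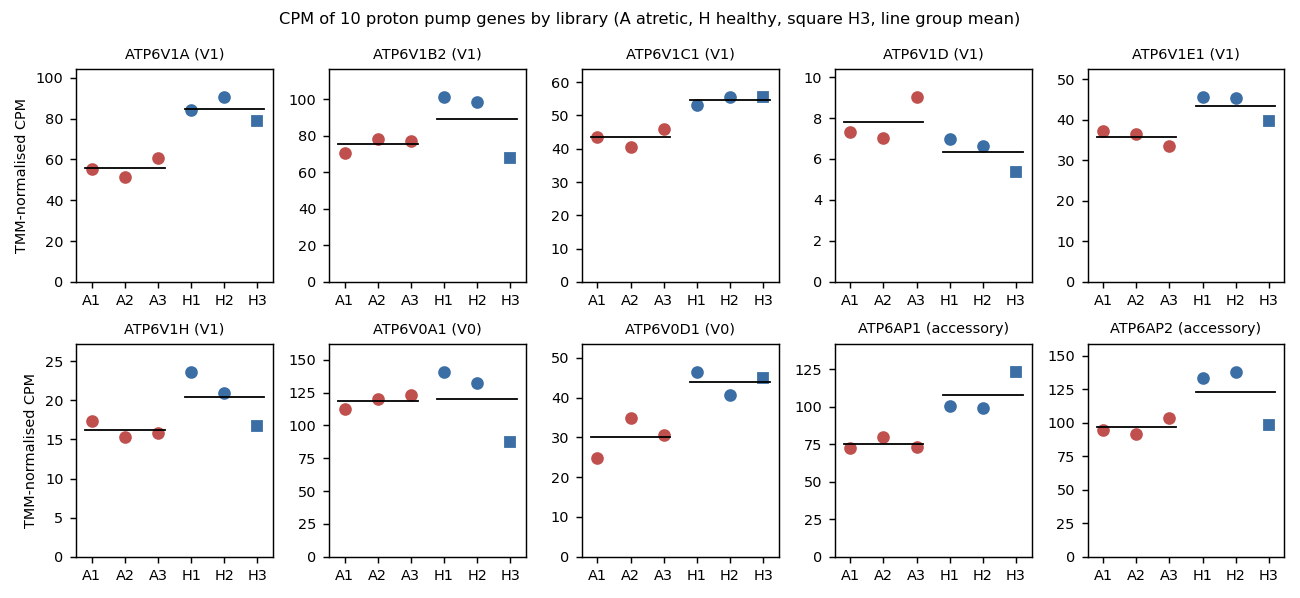
TMM-scaled CPM (y axes, each from 0) of the 10 pump genes in the 3 atretic (A1 to A3, red) and 3 healthy (H1 to H3, blue) libraries, 1 point per library, with a line at the group mean and a square for healthy replicate 3. In ATP6V1A, ATP6V1C1, ATP6V1E1, ATP6V0D1 and ATP6AP1 every atretic point lies below every healthy one, and in ATP6V1B2 and ATP6V0A1 healthy replicate 3 (67.6 and 87.4 CPM) lies below all atretic points.

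Among the V1 subunits, ATP6V1A, the catalytic A subunit that binds and splits ATP, showed the largest difference of the list. It lies on chromosome 1 at 196081049 to 196145345 on the plus strand, in the coordinates of the deposited table, for which the sources used here name no genome build. ATP6V1A had 55.5, 51.2 and 60.9 CPM in atretic replicates 1, 2 and 3 and 84.0, 90.6 and 79.0 CPM in healthy replicates 1, 2 and 3. The groups did not overlap, and even the lowest healthy library was well above the highest atretic one. Its group means were 55.8 ± 4.86 and 84.5 ± 5.80 CPM (SD, n = 3 each), a log2 difference of -0.60 (SE 0.12), and -0.65 (SE 0.10) without healthy replicate 3.

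ATP6V1B2 encodes the B subunit that alternates with A in the ATP-splitting ring, and lies on chromosome 2 at 48009551 to 48036070, minus strand. Its 3 atretic libraries had 70.7, 78.3 and 77.2 CPM, and its healthy ones 101.1, 98.5 and 67.6 CPM. Healthy replicates 1 and 2 were above all atretic libraries, and healthy replicate 3 was below all of them. The log2 difference was -0.24 (SE 0.17) with all libraries and -0.41 (SE 0.09) without healthy replicate 3, so this library moved the value by more than 1.5 times. It was -0.13 without healthy replicate 1.

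ATP6V1C1, the C subunit at the interface between V1 and V0 that takes part in their reversible assembly, lies on chromosome 9 at 82241486 to 82283621, minus strand. It had 43.6, 40.6 and 46.0 CPM in atretic and 53.2, 55.5 and 55.5 CPM in healthy follicles. The groups did not overlap, and the healthy libraries, replicate 3 included, lay close together. The log2 difference was -0.34 (SE 0.10), and -0.33 (SE 0.09) without healthy replicate 3. ATP6V1E1, part of the peripheral stalks that hold the head of V1 in place, lies on chromosome 3 at 229902777 to 229918392, minus strand. It had 37.1, 36.6 and 33.6 CPM in the atretic and 45.6, 45.3 and 39.7 CPM in the healthy libraries. Healthy replicate 3 was nearer to the atretic ones than to the other 2, without reaching them. ATP6V1E1 had a log2 difference of -0.28 (SE 0.11) and, without that library, -0.35 (SE 0.10).

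ATP6V1H encodes the H subunit, which regulates ATP splitting when V1 is detached, and lies on chromosome 9 at 37593010 to 37639421, minus strand. Atretic libraries had 17.4, 15.2 and 15.8 CPM and healthy ones 23.6, 21.0 and 16.7 CPM. Healthy replicate 3 fell within the atretic range, while the other 2 healthy libraries were above it. For ATP6V1H the log2 difference was -0.34 (SE 0.17), and -0.47 (SE 0.12) without healthy replicate 3. It ranged from -0.47 to -0.21 when any 1 library was left out, the smallest size being without healthy replicate 1.

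ATP6V1D, the D subunit of the central rotor shaft, differed from the rest in its sign. It lies on chromosome 7 at 82747337 to 82762878, minus strand, and had the lowest counts of the list, from 373 in healthy replicate 3 to 719 in atretic replicate 3. Its CPM were 7.33, 7.0 and 9.02 in the atretic and 6.96, 6.65 and 5.38 in the healthy libraries. The lowest atretic and the highest healthy library were nearly equal, so the absence of overlap rests on a small gap. ATP6V1D differed by 0.30 (SE 0.19), 0.19 (SE 0.18) without healthy replicate 3, and 0.18 without atretic replicate 3 on the log2 scale, all positive.

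ATP6V0A1 encodes a large membrane subunit that anchors V1 and lines the proton path. It lies on chromosome 11 at 20526976 to 20585433, minus strand. Its atretic libraries had 112.8, 120.5 and 123.2 CPM and its healthy libraries 140.7, 132.6 and 87.4 CPM. Healthy replicates 1 and 2 were above every atretic library and healthy replicate 3 far below. The group means of 119 ± 5.41 and 120.2 ± 28.7 CPM were nearly equal, with a log2 difference of -0.02 (SE 0.19). Without healthy replicate 3 it was -0.20 (SE 0.08), and without healthy replicate 1 it was 0.12, so the sign depends on single libraries.

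ATP6V0D1, the d subunit that couples the rotor shaft to the ring in the membrane, lies on chromosome 14 at 37821542 to 37853108, minus strand. It had 24.7, 34.9 and 30.6 CPM in the atretic and 46.4, 40.7 and 44.8 CPM in the healthy libraries. The groups did not overlap, and healthy replicate 3 lay between the other 2 healthy libraries. The log2 difference was -0.55 (SE 0.15), and -0.54 (SE 0.14) without healthy replicate 3. Healthy replicate 3 was thus low for ATP6V0A1 and not for ATP6V0D1, and the difference was larger for ATP6V0D1 with and without that library.

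The accessory subunit ATP6AP1, which takes part in assembly of the V0 sector, lies on the X chromosome at 88555574 to 88563814, minus strand. It had 72.8, 79.5 and 73.1 CPM in the atretic and 100.4, 99.0 and 123.1 CPM in the healthy libraries. All healthy libraries were higher, and replicate 3 was the highest. ATP6AP1 had a log2 difference of -0.52 (SE 0.13) with all libraries and -0.41 (SE 0.09) without healthy replicate 3. ATP6AP2, also known as the (pro)renin receptor, lies on the X chromosome at 41435694 to 41456606, plus strand. It had 94.5, 91.8 and 103.5 CPM in the atretic and 133.1, 137.9 and 98.3 CPM in the healthy libraries. Healthy replicate 3 was here within the atretic range. The log2 difference was -0.35 (SE 0.16), and -0.49 (SE 0.09) without that library.

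**Figure D2:**
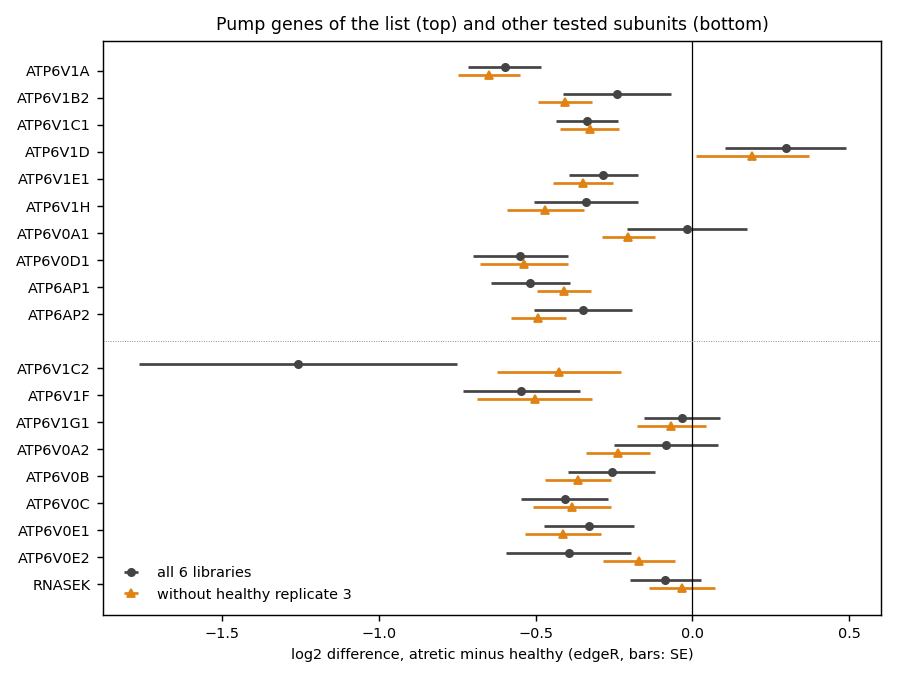
Log2 differences in CPM (atretic minus healthy, x axis) with SE for the 10 pump genes and the 9 other tested subunits, computed with all 6 libraries and without healthy replicate 3. All values but those of ATP6V1D lie below 0, and ATP6V1C2 moves from -1.26 to -0.43 when healthy replicate 3 is left out.

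The genes varied most among themselves in healthy replicate 3. Relative to the mean of healthy replicates 1 and 2 on the log2 scale, this library was lower for 7 of the 10, with a median over the 10 of -0.27. Over all tested loci the corresponding median was -0.02, and 51.4% of loci were lower. The shift was -0.64 for ATP6V0A1 and -0.56 for ATP6V1B2, near 0 for ATP6V1C1 (0.03) and ATP6V0D1 (0.04), and 0.30 for ATP6AP1. Healthy replicate 3 was thus below every atretic library for ATP6V1B2, ATP6V1D and ATP6V0A1, and above both other healthy libraries for ATP6V1C1 and ATP6AP1. For ATP6V1C1 it was nearly equal to healthy replicate 2, at 55.54 CPM in each.

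**Figure D3:**
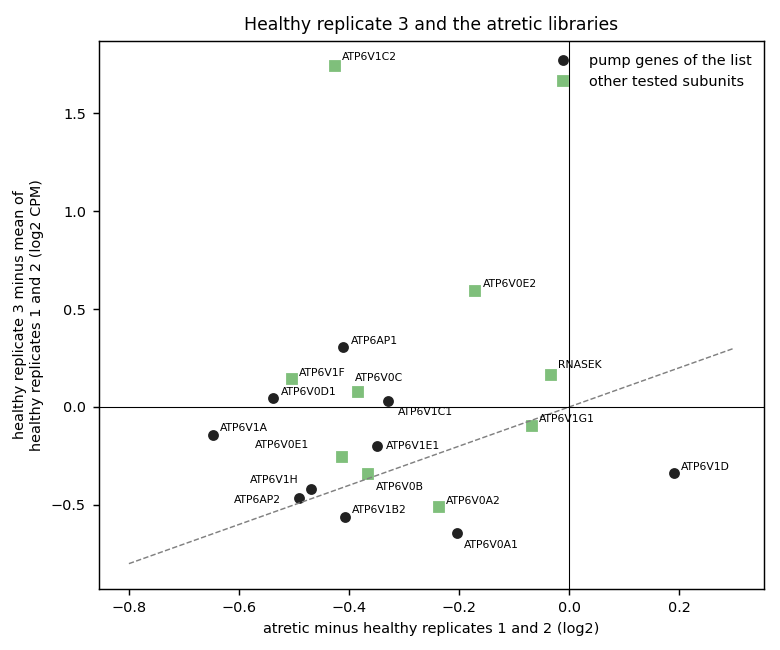
For each tested pump gene, the log2 difference between the atretic libraries and healthy replicates 1 and 2 (x axis) and the log2 CPM of healthy replicate 3 minus the mean of healthy replicates 1 and 2 (y axis), with a dashed line of equal values. ATP6AP1 (0.30) lies above 0 on the y axis, ATP6V0A1 (-0.64) and ATP6V1B2 (-0.56) lie lowest, and ATP6V1C2 is the highest point.

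Summed over the 10 genes, the pump took 536, 555 and 573 CPM in atretic and 735, 728 and 617 CPM in healthy follicles. Every healthy library had the higher sum, with replicate 3 nearest to the atretic range. The 6 V1 genes summed to 229 to 242 CPM in the atretic and to 315, 318 and 264 CPM in the healthy libraries. For the accessory pair the sums were 167 to 177 against 233, 237 and 221 CPM, and for the V0 pair 138 to 155 against 187, 173 and 132 CPM. The V0 sum alone overlapped between groups, since ATP6V0A1 makes up most of it.

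On loci with no other gene name, summed markers of other cells were lower in every atretic library than in healthy replicates 1 and 2. The pump sum was too. In healthy replicate 3 only the endothelial markers, like the pump genes, summed above every atretic library. PECAM1 alone made up 16.1 of those 22.8 CPM, whereas VWF, TEK and KDR were each below every atretic library there. All 15 macrophage markers found (of 16 listed) had a log2 difference below 0, with a median of -1.39, and -1.80 without healthy replicate 3. With all 6 libraries edgeR called 0 of them (adjusted p under 0.05), and 0.0204% of all tested loci lower. Without healthy replicate 3 it called 13 of them lower, against 7.91% of all tested loci. On the 12 macrophage marker loci that carry no other gene name, the markers summed to 123 to 149 CPM in the atretic libraries and to 481, 462 and 124 CPM in healthy replicates 1, 2 and 3. None was at 0 counts in any library. Healthy replicate 3 was thus within the atretic range for this sum, but not for its markers singly. In that library CSF1R, C1QA, C1QB, AIF1 and ITGB2 were above every atretic library. CD14, CD163, ITGAM, FCER1G, TYROBP, LAPTM5 and MSR1 were below every atretic library. Of the 10 pump genes, 3 were below every atretic library in healthy replicate 3 and 2 were within the atretic range. Another 2 lay between that range and the other healthy libraries, 1 (ATP6V0D1) between those healthy libraries and 2 (ATP6V1C1 and ATP6AP1) above them. For ATP6V1C1 that library was nearly equal to healthy replicate 2. Theca and stroma markers on 7 such loci summed to 60.6 to 65.0 CPM in the atretic and 144, 143 and 43.6 CPM in the healthy libraries, with CYP17A1 at 0 in healthy replicate 1. Endothelial markers summed to 17.4 to 18.8 against 37.4, 45.1 and 22.8 CPM, with CDH5 and EMCN at 0 counts in all libraries but 1. Lymphocyte markers summed to 1.54 to 2.47 against 4.79, 6.17 and 1.74 CPM, with CD79A at 0 in 3 libraries, and oocyte markers to 2.76 to 2.89 against 10.3, 9.98 and 0.74 CPM, with BMP15, ZP3 and ZP4 at 0 in healthy replicate 3 and ZP4 at 0 also in atretic replicates 1 and 2. Granulosa markers on 5 loci summed to 4484 to 4955 CPM in the atretic libraries and to 4056, 4048 and 18331 CPM in the healthy ones. INHBA alone made up 14810 CPM of the sum in healthy replicate 3. The 9 granulosa markers, 4 of them on shared loci, had a median log2 difference of -0.31, and of -0.03 without healthy replicate 3. With all 6 libraries edgeR called 0 of the 9. Without healthy replicate 3 it called 0 lower and 3 higher (FSHR, INHBA and GATA4), against 7.91% and 10.9% of all tested loci. The part of these cell markers in the values of the pump genes was not tested.

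**Figure D4:**
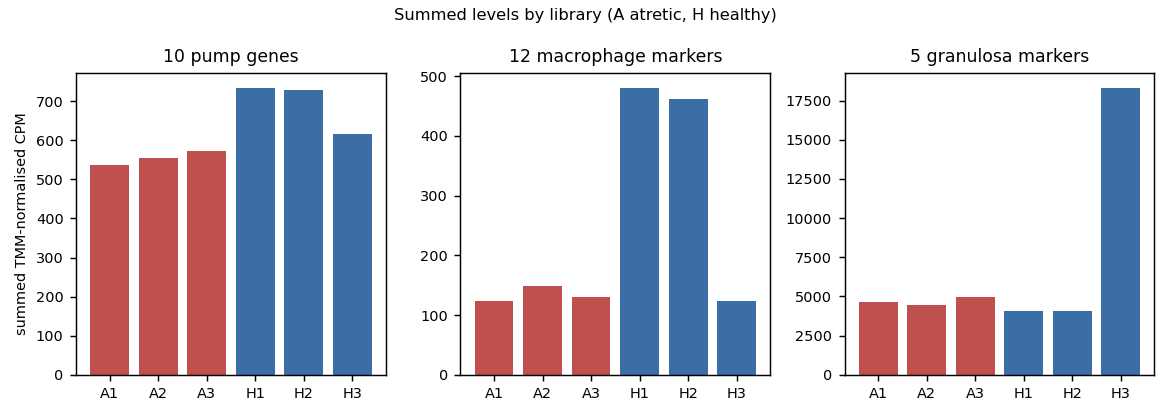
Summed TMM-scaled CPM (y axes, each from 0) of the 10 pump genes, 12 macrophage markers and 5 granulosa markers, 1 bar per library (A1 to A3 atretic, H1 to H3 healthy). The pump sum is 536 to 573 CPM in the atretic libraries and 735, 728 and 617 CPM in the healthy ones, while the macrophage markers have 124 CPM in healthy replicate 3 and 481 and 462 CPM in the other 2 healthy libraries.

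The remaining subunits were taken from a list of 17, of which 14 were found and 9 passed the filter. TCIRG1, ATP6V1G3 and ATP6AP1L matched no locus by name and were not analysed here. Of the 9, edgeR called 0 in either direction over all 6 libraries, and DESeq2 called 0. At an unadjusted p under 0.05 edgeR gave 3 of the 9 as lower and 0 as higher, against 6.41% and 6.37% of all tested loci. The counts among the 9542 protein-coding loci were 824 and 370. Without healthy replicate 3, edgeR called 2 of the 9 lower and 0 higher, against 7.91% and 10.9% of all tested loci. Among the protein-coding loci it then called 1039 lower and 561 higher. The 9 subunits had a median log2 difference of -0.33, and -0.36 without healthy replicate 3, near that of the 10 genes. All 9 values were below 0, as were 54% of all tested loci and 5765 of the 9542 protein-coding ones. Without healthy replicate 3 these shares were 51.3% and 6129 of 9542.

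Of the other V1 subunits, ATP6V1F, the F subunit of the rotor, had 6.71, 8.65 and 8.41 CPM in the atretic and 12.7, 9.72 and 12.3 CPM in the healthy libraries. The groups did not overlap, but the difference of -0.55 (SE 0.19) missed the threshold (edgeR adjusted p = 0.31, and 0.0811 without healthy replicate 3). ATP6V1G1, a stalk subunit, had 47.8 to 60.2 CPM in the atretic and 53.6 to 58.8 CPM in the healthy libraries, with a difference of -0.03 (SE 0.12, edgeR adjusted p = 0.938), and of -0.07 (SE 0.11, adjusted p = 0.706) without healthy replicate 3. ATP6V1C2, a second form of the C subunit, had 3.65, 4.32 and 4.29 CPM in the atretic and 5.66, 5.30 and 18.4 CPM in the healthy libraries. Healthy replicate 3 set most of its difference of -1.26 (SE 0.51, edgeR adjusted p = 0.371), which was -0.43 (SE 0.20, adjusted p = 0.16) without it. An unannotated locus on the opposite strand within ATP6V1C2 had 8197 counts in healthy replicate 3, against 1517 and 1395 in the other 2 healthy libraries and 1191 to 1493 in the atretic ones. No source says if reads were counted by strand, and reads of ATP6V1C2 and of this locus cannot be told apart. ATP6V1C1 and ATP6V1C2 thus had unlike values in healthy replicate 3.

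In V0, the called genes without healthy replicate 3 were ATP6V0B and ATP6V0E1. ATP6V0B, a proteolipid of the proton-carrying ring, had 26.1, 29.6 and 28.4 CPM in the atretic and 35.1, 37.0 and 28.4 CPM in the healthy libraries. Healthy replicate 3 lay within the atretic range, and its difference went from -0.26 (SE 0.14, edgeR adjusted p = 0.5) to -0.36 (SE 0.11, adjusted p = 0.0372) without that library. ATP6V0E1, a small membrane subunit, had 20.2, 20.9 and 19.5 CPM in the atretic and 29.5, 24.2 and 22.4 CPM in the healthy libraries, without overlap. Its difference was -0.33 (SE 0.14, edgeR adjusted p = 0.411), and -0.41 (SE 0.12, adjusted p = 0.0373) without healthy replicate 3. ATP6V0C, the main proteolipid of the ring, had 50.0, 58.4 and 42.7 against 67.7, 63.5 and 69.1 CPM, with no overlap and a difference of -0.41 (SE 0.14, edgeR adjusted p = 0.31), and of -0.38 (SE 0.12, adjusted p = 0.0553) without healthy replicate 3. Its locus also carries AMDHD2, so the reads of both genes are counted together. ATP6V0A2, the form of the large subunit known from the Golgi apparatus, had 27.6 to 29.1 CPM in the atretic and 34.4, 32.5 and 23.4 CPM in the healthy libraries. Healthy replicate 3 was lowest, as for ATP6V0A1, and the difference was -0.08 (SE 0.17, edgeR adjusted p = 0.883), and -0.24 (SE 0.10, adjusted p = 0.131) without it. ATP6V0E2, on a locus shared with ZNF862, had a difference of -0.39 (SE 0.20, edgeR adjusted p = 0.473), and of -0.17 (SE 0.11, adjusted p = 0.331) without healthy replicate 3. RNASEK, a membrane protein found with the pump and counted here with C17orf49 and U6, had one of -0.09 (SE 0.11, edgeR adjusted p = 0.806), and of -0.03 (SE 0.10, adjusted p = 0.856) without that library.

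The 5 subunits below the filter include forms known from specialised cells, such as those of kidney and bone. ATP6V0D2, the d subunit of osteoclasts, had 0 counts in all 6 libraries, which allows up to 0.0328 to 0.0343 CPM of a library's total count, a limit for counting error only. ATP6V1B1, the B subunit of acid-secreting kidney cells, had 0 to 16 counts, and ATP6V1E2, the E form known from testis, 0 to 17. ATP6V0A4, the large subunit of kidney, had 15 to 85 counts. ATP6V1G2, the brain G subunit, had 22 to 61 counts on a locus named as its readthrough with DDX39B. The forms with more counts in these libraries, of the subunits that these 5 encode, were ATP6V1B2, ATP6V1E1, ATP6V1G1, ATP6V0A1, ATP6V0A2 and ATP6V0D1.

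Unannotated loci with the name of a pump gene numbered 10, of which 7 passed the filter. The locus on the opposite strand within ATP6V1B2, at 48029854 to 48035898 on chromosome 2, had 1217, 1016 and 1249 counts in the atretic and 1011, 1061 and 781 in the healthy libraries. Its log2 difference was 0.36 (SE 0.15), and 0.35 (SE 0.15) without healthy replicate 3, opposite in sign to that of ATP6V1B2. The loci opposite to ATP6V1C1 had differences of -0.14 (SE 0.33) and -0.07 (SE 0.18), and that opposite to ATP6V0A1 one of 0.03 (SE 0.24). All 3 had the other sign without healthy replicate 3, at 0.23 (SE 0.24), 0.01 (SE 0.16) and -0.09 (SE 0.23). The loci opposite to ATP6V0A2 had differences of -0.53 (SE 0.23) and -0.11 (SE 0.24), and of -0.60 (SE 0.30) and -0.08 (SE 0.25) without that library. As for ATP6V1C2, reads of these loci and of the pump genes around them cannot be told apart. The larger locus opposite to ATP6V1C1 had 24.7 to 41.8% of the counts of ATP6V1C1, and that opposite to ATP6V1B2 had 11.1 to 22.5%.

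A wider list held 44 genes that assemble the pump, sense its state or share its membranes, of which 43 were found and 38 passed the filter. Their median log2 difference was -0.14, and -0.13 without healthy replicate 3. With all 6 libraries edgeR called 0 of the 38, with 1 lower and 3 higher at an unadjusted p under 0.05. The shares of all tested loci were 6.41% and 6.37%, and 824 and 370 of the 9542 protein-coding loci. DESeq2 called 2 of the 38 higher, LAMTOR5 and CLCN6, against 2.53% of all loci. Without healthy replicate 3 edgeR called 3 lower and 4 higher, against 7.91% and 10.9% of all tested loci. Of the 9542 protein-coding loci it then called 1039 lower and 561 higher. In the assembly factors, none of 11 was called in either fit, and ROGDI and WDR7, which belong to the mammalian counterpart of the yeast RAVE complex that rejoins V1 to V0, had differences of -0.95 (SE 0.44, edgeR adjusted p = 0.43) and -0.20 (SE 0.10, adjusted p = 0.473). The values without healthy replicate 3 were -0.42 (SE 0.27) and -0.23 (SE 0.09).

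Ragulator and the Rag GTPases, which bind the pump and bring mTORC1 to the lysosome, had 14 tested genes with their partners, and 0 were called with all 6 libraries. LAMTOR5, a Ragulator subunit, had 12.7, 12.7 and 11.8 CPM in the atretic and 7.86, 8.30 and 8.13 CPM in the healthy libraries. Every atretic library was higher, with a difference of 0.61 (SE 0.14, edgeR adjusted p = 0.186, and 0.0149 without healthy replicate 3). RRAGB, a Rag GTPase, was 60.3 to 68.9 CPM in the atretic and 49.5 to 51.9 CPM in the healthy libraries, a difference of 0.35 (SE 0.10, edgeR adjusted p = 0.27, and 0.0226 without healthy replicate 3). Without that library RRAGC was called lower (-0.42, edgeR adjusted p = 0.015) and FNIP1 higher (0.42, adjusted p = 0.014). With all 6 libraries their differences were -0.21 and 0.01. Both were named after their values were seen. Counts divided by FPKM gave a length of 4413 bases for LAMTOR5, on a locus spanning 5575. The lengths were 23633 of 41331 bases for RRAGB and 90647 of 122484 for FNIP1, but 3675 of 22651 for RRAGC. Whether reads from introns entered these values was not tested.

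Among 11 ion transporters of endosomes and lysosomes, CLCN6, a chloride-proton exchanger of late endosomes, had 204, 212 and 205 CPM in the atretic and 118, 117 and 111 CPM in the healthy libraries. Its groups were far apart, with an edgeR adjusted p of 0.0703, and 6.39e-05 without healthy replicate 3. TPCN1, a cation channel of the same membranes, had 14.8, 15.8 and 12.9 CPM in the atretic and 20.5, 19.9 and 18.5 CPM in the healthy libraries, a difference of -0.43 (SE 0.14, edgeR adjusted p = 0.287, and 0.0285 without healthy replicate 3). SLC9A9, a sodium-proton exchanger of endosomes named after its values were seen, had a difference of -0.64 (SE 0.43, edgeR adjusted p = 0.594), and of -1.01 (SE 0.15, adjusted p = 0.00112) without healthy replicate 3. Counts divided by FPKM gave CLCN6 a length of 28474 bases on a locus spanning 35235. For TPCN1 and SLC9A9 the lengths were 6507 of 70204 and 3803 of 652901 bases. The part of intron reads was not tested here either. Of the MiT-TFE factors, which in mammals switch on genes of lysosomes and of the pump, TFEB had a difference of -0.59 (SE 0.36, edgeR adjusted p = 0.568) and TFE3 one of -0.07 (SE 0.16, adjusted p = 0.91). They were -0.80 (SE 0.32, edgeR adjusted p = 0.106) and -0.15 (SE 0.14, adjusted p = 0.482) without healthy replicate 3.

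**Figure D5:**
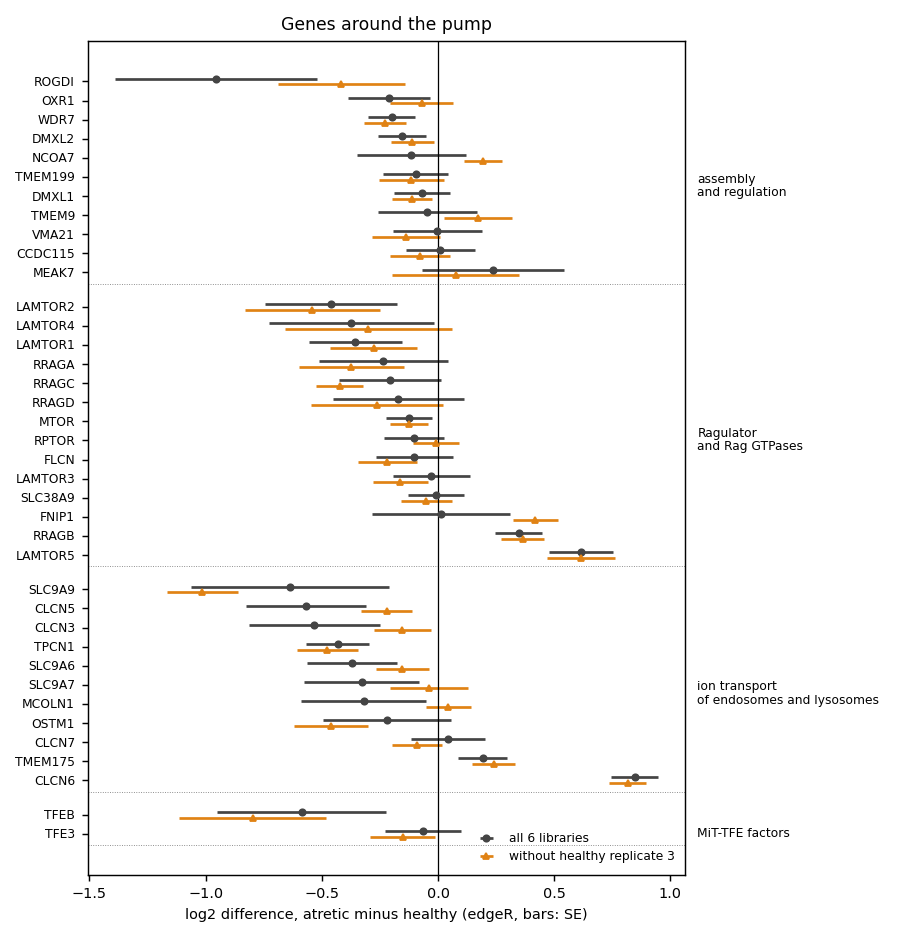
Log2 differences in CPM (atretic minus healthy, x axis) with SE of the 38 tested genes of the neighbour lists, grouped by list, with all 6 libraries (circles) and without healthy replicate 3 (triangles). Most points lie below 0, LAMTOR5 (0.61) and CLCN6 (0.85) lie highest, and ROGDI moves from -0.95 to -0.42 without healthy replicate 3.

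The shared profile of the 10 genes, the median of their log2 CPM after each gene was centred on its own mean, was -0.18, -0.14 and -0.13 in atretic replicates 1 to 3 and 0.27, 0.20 and -0.05 in healthy replicates 1 to 3. ATP6V1E1 followed it most closely, with a root mean square difference of 0.07, and ATP6V1D least, with 0.31. Over the same 6 libraries, the 5 annotated protein-coding loci outside the lists with the smallest difference from this profile, of 8315 compared, were KRCC1 (0.030), IQGAP1 (0.035), UQCRC2 (0.035), M6PR (0.037) and a locus of DHDDS shared with an Ensembl gene (0.039). M6PR is the cation-dependent mannose 6-phosphate receptor that carries enzymes to lysosomes, UQCRC2 is a core subunit of respiratory complex III and IQGAP1 is a cytoskeletal scaffold. M6PR had 54.9, 56.5 and 53.2 CPM in the atretic and 75.5, 71.1 and 59.0 CPM in the healthy libraries. The likeness is a description over 6 libraries that share their depth and scaling.

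In the pathway annotation of the deposited table, 9 of the 10 genes were listed under oxidative phosphorylation and under phagosome, all but ATP6AP2. The 6 V1 genes were listed under mTOR signaling, 4 genes (ATP6V1H, ATP6V0A1, ATP6V0D1 and ATP6AP1) under lysosome, and ATP6AP2 under the renin-angiotensin system alone. Thus the lysosome label of that table holds 4 of the 10.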

How the data were processed

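The authors deposited 1 table with raw read counts and FPKM values per locus, per the file headers. The tools named, per the submitters' processing notes, are StringTie 2.1.6, SAMtools, HISAT2 2.0.4, FastQC 0.11.9 and cutadapt 1.9. No source used here gives the genome build or strand setting. The 10 genes and all gene lists were chosen with earlier results of these data known. Loci without a gene name (8.88 to 11.5% of counts) entered neither library sizes nor tests. Groups were compared with edgeR 4.0.16 (TMM, quasi-likelihood, group alone, two-sided, Benjamini-Hochberg over 14702 loci, threshold 0.05). SE came from the F statistic. Named were all pump genes, in each neighbour list the called genes (at most 3 a direction) or else the 2 with the smallest unadjusted p, and the 5 likeness genes. Symbols missing from the table were taken through NCBI gene numbers and RefSeq (ARS-UI_Ramb_v3.0, names only). The fit was tested on simulated data with 1 coefficient of variation for all loci and no library set apart. That test does not cover the effect of healthy replicate 3. Alternatives used limma 3.58.1 and DESeq2 1.42.0, in R 4.3.3, Python 3.11.15 and pandas 2.3.3. Left out were sequences and promoter motifs, which were not analysed here.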

Additional observations from a re-analysis of the deposited data

How the results depend on the processing

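The log2 differences of the 10 pump genes moved by less than their replicate spread in all 150 recomputed values. The sign differed from the main value in 4, all of ATP6V0A1 (0.01, 0.02, 0.12 and 0.07 with the replicate block and without atretic replicate 1, healthy replicate 1 and healthy replicate 2). With 1 library left out, a move beyond the replicate spread was nearly impossible in advance, since that spread includes the library left out. The comparison with the spread therefore says little about stability in those fits. Of 705 values of the 47 other tested genes, 656 kept their direction and their side of the threshold. In 11 the gene passed the threshold only under an alternative, 9 without healthy replicate 3 and 2 with DESeq2. In 38, from 16 genes, the sign changed, and 0 of these 38 passed the threshold. VMA21 (-0.0028 in the reported fit) was 0.0045, 0.0021, 0.0036, 0.0056 and 0.0044 with RLE factors, upper-quartile factors, no filter, the replicate block and DESeq2. CCDC115 was -0.0074, -0.0167 and -0.0152 with unnamed loci and limma on log2(FPKM + 1) and log2(FPKM + 0.1), and FNIP1 -0.0018 with unnamed loci. With 1 library left out, log2 differences ran from -0.11 to 0.055 for ATP6V1G1, from -0.24 to 0.032 for ATP6V0A2, from -0.14 to 0.17 for VMA21, from -0.077 to 0.075 for CCDC115, from -0.16 to 0.17 for TMEM9, from -0.25 to 0.19 for NCOA7, from -0.16 to 0.071 for LAMTOR3 and from -0.40 to 0.14 for RRAGA. They ran from -0.33 to 0.052 for RRAGD, from -0.069 to 0.081 for SLC38A9, from -0.22 to 0.014 for FLCN, from -0.16 to 0.42 for FNIP1, from -0.089 to 0.13 for CLCN7, from -0.46 to 0.013 for OSTM1, from -0.48 to 0.044 for MCOLN1 and from -0.15 to 0.059 for TFE3. The cause was not tested. The counts of calls also varied between settings. Loci called higher and lower were 7 and 3 in the reported fit, and 2 and 0 both without a filter and with at least 10 counts in 3 libraries. They were 33 and 4 with unnamed loci included and 372 and 257 with DESeq2. Loci called lower were 1 with upper-quartile factors and 1 with limma on log2(FPKM + 1) or log2(FPKM + 0.1). Leaving out 1 library gave 0 to 1598 higher and 0 to 1163 lower loci, the largest counts without healthy replicate 3. Of the 10 pump genes 2 were called lower with DESeq2 and 0 to 8 with 1 library left out. For the other subunits this range was 0 to 2, with medians from -0.36 to -0.21, and for the neighbour lists 0 to 3 lower and 0 to 4 higher, with 2 higher under DESeq2. The replicate block gave 0 higher and 0 lower loci and a median of -0.33 for the pump genes. Deviations of same-numbered libraries correlated at -0.14, 0.06 and 0.0002, so the numbers were not taken to pair the libraries. No scaling moved the median of all loci by over 0.1. Counting error weighs most on ATP6V1D, with 373 to 719 counts per library.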
